A study of Arabidopsis thaliana with 6 samples.

Results

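Glucosinolates are the sulphur-containing defence compounds of Arabidopsis thaliana and its relatives, and 10 genes of their synthesis were followed here in rosette leaves. The genes were taken by identifier from a list drawn up with earlier results of these data known: the regulators MYB28, MYB29, MYB76 and MYB34 and the enzymes MAM1, CYP79F1, CYP79F2, CYP83A1, CYP79B2 and CYP83B1. They are 10 of the 38194 genes listed in the expression table, and every row they have in the tables of introns, exon skipping and alternative splice sites was taken as well. All 10 passed the limit of a mean of 1 RPKM (reads scaled to gene length and library size) and were tested. The leaves came from the mac3a/mac3b double mutant and from the wild type Col-0, with 3 libraries of polyadenylated RNA each. MAC3A and MAC3B encode paralogous subunits of the spliceosome-bound MOS4-associated complex. Plants of both genotypes were 40 days old, had not flowered, and grew at 22 °C with 8 h of light and 16 h of darkness a day. The labels name no mac3a or mac3b allele, no time of day of collection, and not whether a library is 1 plant or a pool. Where nothing says that libraries came from separate plants, the p-values measure only the spread between these libraries.

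Aliphatic glucosinolates are built from methionine, whose side chain is lengthened in cycles before the core is formed, and indolic glucosinolates are built from tryptophan. In each branch a CYP79 enzyme turns the amino acid into an aldoxime and a CYP83 enzyme oxidises the aldoxime, after which later core enzymes add sulphur, glucose and sulphate. MYB28, MYB29 and MYB76 are known as activators of the aliphatic genes and MYB34 of the indolic ones, so 7 of the genes belong to the aliphatic branch and 3 to the indolic branch. When tissue is damaged, myrosinases break glucosinolates down into toxic products. In TAIR10.1 coordinates, chromosome 5 carries MYB29 (AT5G07690, 2446669 to 2448584), MYB76 (AT5G07700, 2450027 to 2451807), MAM1 (AT5G23010, 7703041 to 7706973), MYB34 (AT5G60890, 24494291 to 24496371) and MYB28 (AT5G61420, 24689069 to 24691187). Chromosome 4 carries CYP83A1 (AT4G13770, 7990429 to 7992429), CYP83B1 (AT4G31500, 15273410 to 15275404) and CYP79B2 (AT4G39950, 18525042 to 18527602). Chromosome 1 carries CYP79F2 (AT1G16400, 5605044 to 5607498) and CYP79F1 (AT1G16410, 5608682 to 5612064). CYP79F2 and CYP79F1 lie 1183 bases apart and MYB29 and MYB76 lie 1442 bases apart.

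The libraries held 80626787 to 108909613 unique reads over the 13069 genes that have such counts. CYP79F2 is not among them, and the other 9 genes had 82 to 92818 unique reads per library. The mutated genes MAC3A and MAC3B together summed to 11.95 to 17.85 RPKM in mac3a/mac3b and to 53.12 to 69.13 RPKM in Col-0. MAC3A averaged 7.03 RPKM in mac3a/mac3b and 19.6 RPKM in Col-0, and MAC3B 7.41 RPKM in mac3a/mac3b and 40.3 RPKM in Col-0. The 5 mesophyll markers, photosynthesis genes of the green leaf cells, summed to 29490 to 45534 RPKM in mac3a/mac3b and to 16953 to 42856 RPKM in Col-0. These sums overlapped, while the libraries of RCA and GAPA among the 5 did not overlap and were higher in mac3a/mac3b, as in 9.15% of all tested genes. The log2 fold changes of the 5 ran from 0.50 to 0.76, with a median of 0.58. None of the 5 passed in limma, with or without the replicate block, and their part in the results was not tested. The 5 flower markers summed to 1.31 to 1.44 RPKM in mac3a/mac3b and 0.52 to 0.96 RPKM in Col-0, and the 3 seed markers to at most 0.06 RPKM in mac3a/mac3b and 0.02 RPKM in Col-0. Of the 4 root markers, IRT1 and MYB36 were listed at 0 in every library, NRT2.1 reached at most 1.05 RPKM in mac3a/mac3b and 0.89 RPKM in Col-0, and SCR, which is also a bundle sheath gene, had 7.92 to 16.4 RPKM in mac3a/mac3b and 7.59 to 8.73 RPKM in Col-0. The 5 vein markers summed to 264.1 to 414.2 RPKM in mac3a/mac3b and 252.6 to 408.8 RPKM in Col-0, and none passed in limma with or without the block (SWEET12, lower in mac3a/mac3b in 3 of 3 pairs, had an adjusted p of 0.00856 in 1 blocked alternative). In leaf RNA, fewer cells of a type and less RNA per cell cannot be told apart. Across genes, deviations from the genotype means correlated between same-numbered libraries (r of 0.62, 0.78 and 0.43). A fit that takes the replicate number as a block, called blocked below, is therefore given where it changes a call.

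**Figure D1:**
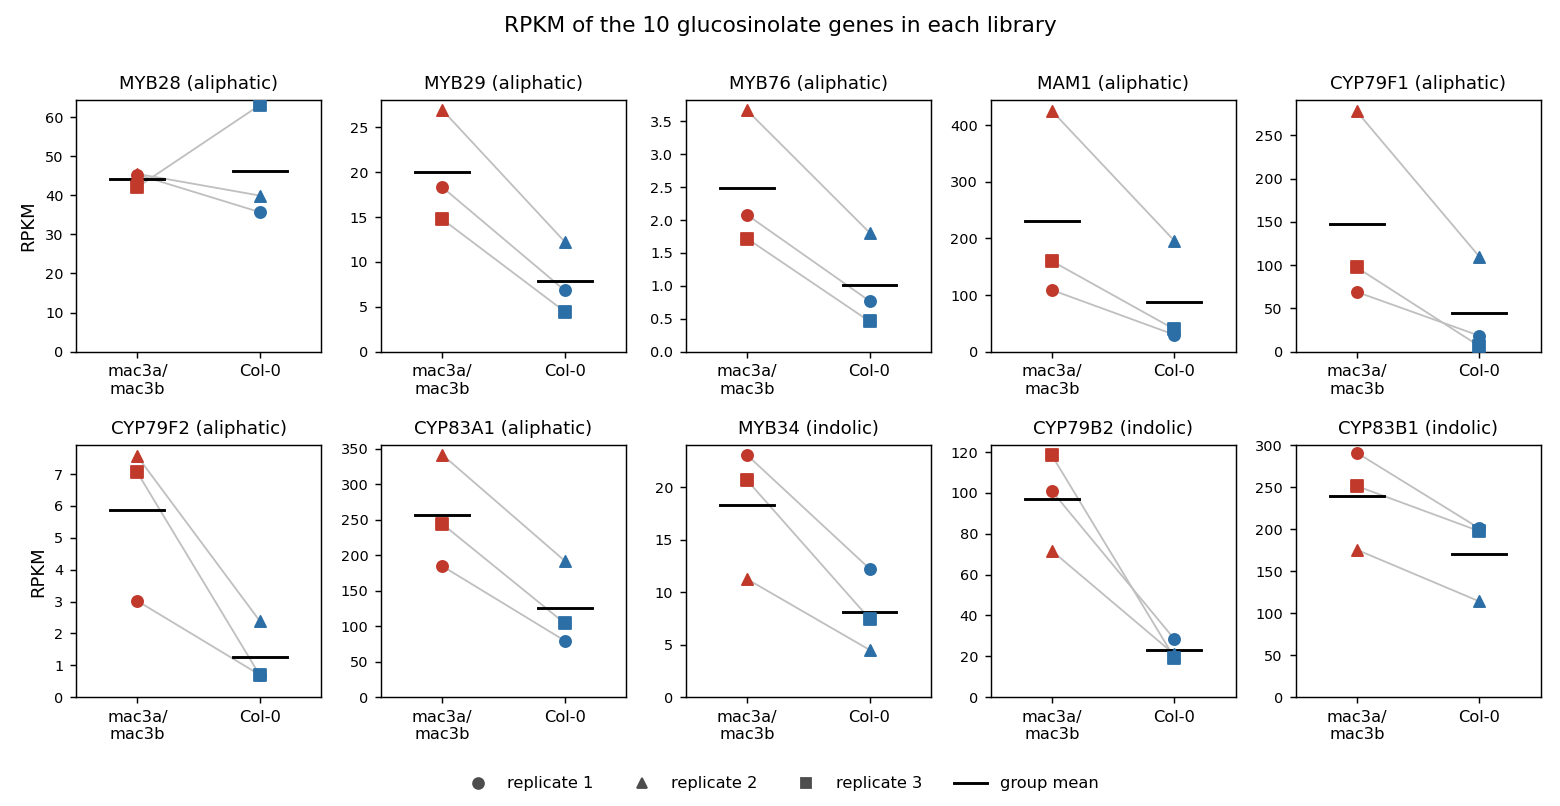
RPKM of each of the 10 genes (y axes, linear, 1 scale per gene) in the 3 mac3a/mac3b libraries (red, left) and the 3 Col-0 libraries (blue, right); symbols give the replicate number, grey lines join libraries of the same number and black bars are group means. In every panel but that of MYB28 the grey lines all run down to Col-0, and replicate 2 is the highest library of most aliphatic genes and the lowest of MYB34 and CYP83B1 in both genotypes.

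The 10 genes were higher in mac3a/mac3b as a rule, in enzymes of both branches and in 3 of the 4 regulators, while MYB28 had a log2 fold change of −0.02. In 9 of the 10 genes the mac3a/mac3b library lay above the Col-0 library of the same number in 3 of 3 pairs, as it did in 25.4% of all tested genes. The mean folds of these 9 ran from 1.40 in CYP83B1 to 4.66 in CYP79F2. Without the block 0 of the 10 passed a limma adjusted p of 0.05, against 0.105% of all 17163 tested genes, although the unadjusted p was under 0.05 in 6, against 11% of all tested genes. In the blocked fit 7 passed, all higher in mac3a/mac3b, against 2.7% of all tested genes called higher by that fit. The median log2 fold change of the 10 was 1.21, and that over all tested genes was 0.01. Blocked fits without 1 pair called fewer genes over the whole table as well. Without the replicate 1 pair 0 of the 10 passed, where 0.00588% of all tested genes were called higher. Without that pair the log2 fold changes stayed near those of all pairs, for example 1.302 in MYB29, 2.14 in CYP79B2 and 2.53 in CYP79F1. Without the replicate 2 pair 4 passed (MYB29, MAM1, CYP79F1 and CYP79B2), against 0.717% of all tested genes called higher, and without the replicate 3 pair 4 did (MYB29, CYP79F1, CYP79F2 and CYP79B2), against 1.37%. The log2 fold change of CYP79F1, 2.30 with all pairs, was 2.79 without the replicate 2 pair and 1.59 without the replicate 3 pair. That of MAM1, 1.65 with all pairs, was 1.91 and 1.47.

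MYB29, an activator of aliphatic genes that adds to the action of MYB28, had 18.3, 27.0 and 14.8 RPKM in mac3a/mac3b replicates 1, 2 and 3, against 6.83, 12.3 and 4.47 RPKM in Col-0. Every mac3a/mac3b library lay above every Col-0 library, as in 9.15% of all tested genes. The means were 20.02 ± 6.26 RPKM in mac3a/mac3b and 7.85 ± 3.99 RPKM in Col-0 (SD, n = 3 each), and the log2 fold change was 1.303 (limma adjusted p 0.299 unblocked, 0.0254 blocked). MYB76, the neighbouring paralog of MYB29, was the lowest of the regulators, with 2.08, 3.67 and 1.72 RPKM in mac3a/mac3b and 0.77, 1.81 and 0.46 RPKM in Col-0. The highest Col-0 library of MYB76 lay above the lowest mac3a/mac3b library, so the groups overlapped. Its log2 fold change of 0.81, on the log2(RPKM + 1) scale, which understates changes of low genes, gave limma adjusted p-values of 0.438 unblocked and 0.0443 blocked.

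MYB28, the main activator of aliphatic genes in the leaf, had 45.3, 45.5 and 42.1 RPKM in mac3a/mac3b and 35.7, 40.0 and 63.1 RPKM in Col-0. The mac3a/mac3b libraries lay within the range of the Col-0 libraries. The means were 44.3 ± 1.93 RPKM in mac3a/mac3b and 46.3 ± 14.7 RPKM in Col-0 (SD, n = 3 each), with a log2 fold change of −0.02 (SE 0.24, limma adjusted p 0.991 unblocked; SE 0.21, 0.969 blocked). Without Col-0 replicate 3, its highest library, the log2 fold change was 0.22 with a limma adjusted p of 0.843 (0.8 to 1 over all unblocked alternatives).

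MYB34, the activator of indolic genes, had 23.1, 11.3 and 20.7 RPKM in mac3a/mac3b, against 12.3, 4.51 and 7.48 RPKM in Col-0. Replicate 2 was the lowest library in each genotype, and the groups overlapped because mac3a/mac3b replicate 2 lay below Col-0 replicate 1. The means were 18.3 ± 6.25 RPKM in mac3a/mac3b and 8.08 ± 3.90 RPKM in Col-0 (SD, n = 3 each), a log2 fold change of 1.12 (limma adjusted p 0.374 unblocked, 0.0273 blocked).

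Among the enzymes, CYP79B2, which makes indole-3-acetaldoxime from tryptophan, had the lowest unblocked adjusted p. It had 100.9, 71.7 and 118.4 RPKM in mac3a/mac3b, against 28.4, 21.0 and 19.3 RPKM in Col-0. The lowest mac3a/mac3b library exceeded the highest Col-0 library. The means were 97.0 ± 23.6 RPKM in mac3a/mac3b and 22.9 ± 4.86 RPKM in Col-0 (SD, n = 3 each), 4.24-fold, with a log2 fold change of 2.02 (SE 0.26). The limma adjusted p was 0.0797 unblocked and 0.0243 blocked, and it was 0.043 unblocked once RPKM were rescaled to each library's total (2.22e-09 to 0.324 over all unblocked alternatives). In the authors' deposited table its adjusted p was 2.44e-08, and CYP79F2 (0.0175) was the only other of the 10 under 0.05 there. CYP83B1, the next indolic enzyme, differed less. It had 291.2, 175.6 and 251.5 RPKM in mac3a/mac3b and 201.1, 114.1 and 197.8 RPKM in Col-0, and its groups overlapped. Its log2 fold change of 0.50 did not pass (limma adjusted p 0.661 unblocked, 0.15 blocked), though it passed in blocked DESeq2 on unique reads, which called 7.07% of all genes higher (adjusted p 0.0229; 0.0229 to 0.577 over all blocked alternatives).

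MAM1, a methylthioalkylmalate synthase that lengthens the methionine chain, had 108.8, 425.2 and 159.9 RPKM in mac3a/mac3b, against 29.8, 195.8 and 39.5 RPKM in Col-0. The groups overlapped through replicate 2, which was the highest library of each genotype. The means were 231.3 ± 169.8 RPKM in mac3a/mac3b and 88.4 ± 93.2 RPKM in Col-0 (SD, n = 3 each), and the log2 fold change was 1.65 (limma adjusted p 0.532 unblocked, 0.0292 blocked). CYP83A1, the aliphatic counterpart of CYP83B1, had 184.7, 341.7 and 244.1 RPKM in mac3a/mac3b and 79.6, 192.1 and 104.1 RPKM in Col-0. Col-0 replicate 2 exceeded mac3a/mac3b replicate 1. Its log2 fold change was 1.08 (limma adjusted p 0.393 unblocked, 0.039 blocked).

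CYP79F1 and CYP79F2 are tandem genes whose enzymes turn chain-elongated methionine into aldoximes, CYP79F2 only the long-chain forms. CYP79F1 had 69.0, 277.7 and 97.3 RPKM in mac3a/mac3b, against 18.4, 109.9 and 6.41 RPKM in Col-0. Its spread within Col-0 was 17.1-fold between the highest and lowest library, the widest of the 10 genes. Its log2 fold change was 2.30, and without 1 library it ran from 1.42 (without Col-0 replicate 3) to 3.37 (without Col-0 replicate 2). It did not pass in limma without the block (adjusted p 0.477) or with it (0.0629), and passed blocked once RPKM were rescaled, where 3.05% of all genes were called higher (limma adjusted p 0.00482; 6.08e-06 to 0.159 over all blocked alternatives). CYP79F2 had 3.02, 7.56 and 7.05 RPKM in mac3a/mac3b and 0.70, 2.39 and 0.69 RPKM in Col-0. All mac3a/mac3b libraries of CYP79F2 lay above all Col-0 libraries, and its log2 fold change was 1.61 (limma adjusted p 0.235 unblocked, 0.0354 blocked). The log2(RPKM + 1) scale understates the change of this low gene, which was 2.25 with a pseudocount of 0.1. The coding sequences of CYP79F1 and CYP79F2 are 91.9% identical with a longest shared run of 100 bases, so reads could be split between them and both values carry that uncertainty. The table's length for CYP79F1 is 2.743 kb and that for CYP79F2 is 2.018 kb, and these lengths enter their RPKM.

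Within each genotype the aliphatic and indolic genes ran in opposite directions across replicate numbers. Of the 7 aliphatic genes, 7 were highest in replicate 2 in mac3a/mac3b and 6 in Col-0, MYB28 being the exception. In mac3a/mac3b MYB28 was nearly level as well, with 1.08-fold between its highest and lowest library. Of the 3 indolic genes, 3 were lowest in replicate 2 in mac3a/mac3b and 2 in Col-0. The summed RPKM of the 7 aliphatic genes was 431.3, 1128.3 and 567.0 in mac3a/mac3b replicates 1, 2 and 3 and 171.7, 554.3 and 218.8 in Col-0. That of the 3 indolic genes was 415.2, 258.6 and 390.6 RPKM in mac3a/mac3b and 241.8, 139.6 and 224.6 RPKM in Col-0. Both sums were thus higher in mac3a/mac3b in each same-numbered pair, while replicate 2 had the highest aliphatic and the lowest indolic sum of either genotype. The labels do not say what a replicate number marks, and its part in these levels was not tested beyond the block.

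The balance between the branches varied more by replicate number than by genotype. The ratio of CYP79F1 to CYP79B2, in RPKM, was 0.684, 3.88 and 0.822 in mac3a/mac3b, against 0.646, 5.25 and 0.332 in Col-0. For CYP83A1 to CYP83B1 it was 0.634, 1.95 and 0.971 in mac3a/mac3b and 0.396, 1.68 and 0.527 in Col-0. MYB29 to MYB34 gave 0.794, 2.39 and 0.714 in mac3a/mac3b and 0.558, 2.72 and 0.598 in Col-0. In all 3 ratios the genotypes overlapped, and replicate 2 was above 1 and the other libraries below 1 in both.

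**Figure D2:**
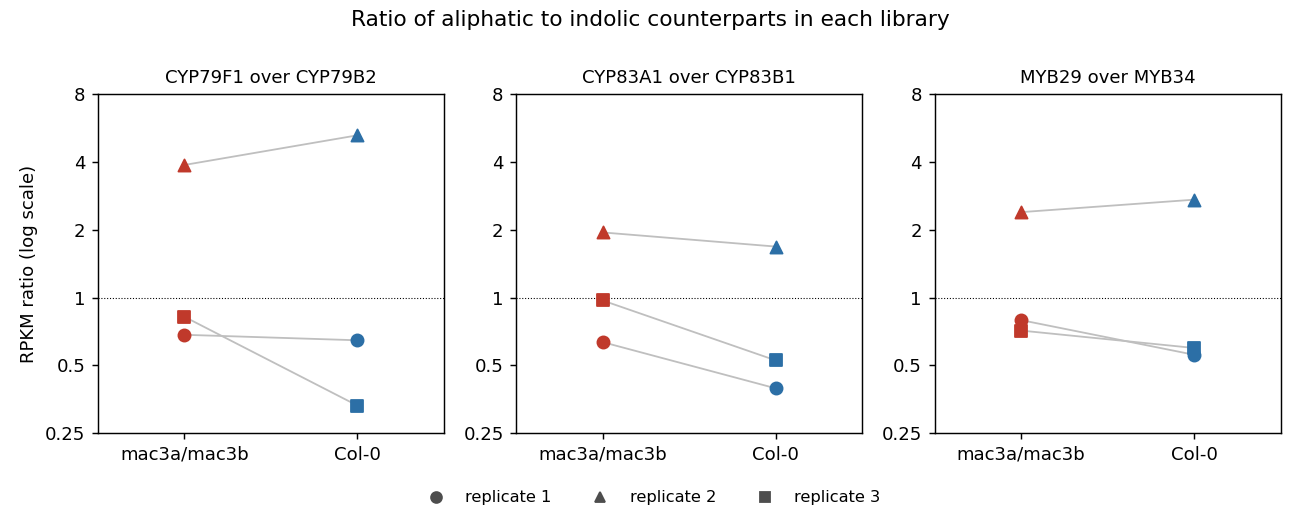
Ratio of RPKM of an aliphatic gene to its indolic counterpart (y axis, log scale) in each mac3a/mac3b library (red, left) and Col-0 library (blue, right), with grey lines joining the same replicate number. The ratios in replicate 2 lie between 1.68 and 5.25, and those in replicates 1 and 3 between 0.332 and 0.971, in both genotypes.

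Genes outside the 10 with the most similar course over the 6 libraries were looked up as a description, by Pearson r with the mean standardised log2(RPKM + 1) of each branch; the points share libraries and depth. For the aliphatic genes these were ABA1 (r = 0.995), the zeaxanthin epoxidase of abscisic acid synthesis, SBP2 (0.992), AT5G63130 (0.992), ABIL1 (0.991) and AT4G18630 (0.987). ABA1 had 174.5, 301.0 and 214.1 RPKM in mac3a/mac3b and 89.2, 163.5 and 97.97 RPKM in Col-0. For the indolic genes they were AT4G30010 (0.997), AT5G10150, AT1G80700, AT4G06705 and AT4G08175 (0.992 to 0.993). Over 6 libraries and 17163 genes some r values are high for any course.

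The rest of the pathway was examined through lists of 66 other genes, of which 56 were tested. Without the block 0 passed in limma, and in 23 the unadjusted p was under 0.05, against 11% of all tested genes. Unblocked DESeq2 on unique reads called 6 of the 37 it tested higher, all of core synthesis (APK1, APK2, SUR1, UGT74B1, UGT74C1 and CYP79B3), against 2.16% of all genes. In the blocked limma fit 18 were higher in mac3a/mac3b and 1 was lower, against 2.7% of all tested genes higher and 1.82% lower. The median log2 fold change of the 56 was 0.59. Without the replicate 1 pair 0 of them passed in the blocked fit, where 1 gene of the whole table did. These lists were drawn up with results of these data known, and the counts describe them only.

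In chain elongation, 5 of 8 genes were higher with the block and 0 lower, with a median log2 fold change of 1.56. IPMI_SSU3, a small subunit of the isopropylmalate isomerase, averaged 105.6 ± 29.7 RPKM in mac3a/mac3b and 26.7 ± 18.3 RPKM in Col-0 (log2 fold change 2.12, blocked limma adjusted p 0.036). IPMDH1, the dehydrogenase that follows it, averaged 145.3 ± 90.3 RPKM in mac3a/mac3b and 41.0 ± 36.1 RPKM in Col-0 (2.00, 0.0254). BAT5, the plastid transporter of the keto acids, averaged 47.0 ± 30.5 RPKM in mac3a/mac3b and 13.3 ± 11.2 RPKM in Col-0 (SD, n = 3 each; 1.85, 0.0228). BCAT4, the aminotransferase that opens the cycle, and IPMI_SSU2 had log2 fold changes of 1.69 and 1.44 (blocked limma adjusted p 0.0406 and 0.034). MAM3, the tandem neighbour of MAM1, did not share this direction. It had 0.06, 18.2 and 1.68 RPKM in mac3a/mac3b and 0.19, 25.3 and 9.55 RPKM in Col-0, lower in 3 of 3 pairs. It did not pass in limma (log2 fold change −0.87, blocked adjusted p 0.232) and was called lower in blocked DESeq2, as 7.03% of all genes were (adjusted p 0.00137; 0.00137 to 0.338 over all blocked alternatives). The coding sequences of MAM1 and MAM3 are 83.8% identical, and MAM3 is named here after its values were seen.

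Core synthesis had the most calls in the blocked limma fit, with 10 of 14 genes higher, 0 lower and a median log2 fold change of 1.20. In 11 of the 14 all mac3a/mac3b libraries lay above all Col-0 libraries, as in 9.15% of all tested genes, and in 1, GSTF10, all lay below, as in 7.28%. GSTF10, a glutathione transferase, had a blocked limma adjusted p of 0.0798 and was called lower in 2 blocked alternatives, DESeq2 and rescaled RPKM (0.000104 to 0.261 over all blocked alternatives), where rescaling called 3.66% of all genes lower. CYP79B3, which makes the same aldoxime as CYP79B2, had 140.3, 51.9 and 63.8 RPKM in mac3a/mac3b, against 37.7, 13.8 and 11.8 RPKM in Col-0 (log2 fold change 2.02, blocked limma adjusted p 0.016). Every mac3a/mac3b library of CYP79B3 lay above every Col-0 library. The kinases APK2 and APK1, which supply activated sulphate, had log2 fold changes of 1.86 and 1.31. APK2 averaged 194.1 ± 24.1 RPKM in mac3a/mac3b and 54.1 ± 15.6 RPKM in Col-0 (SD, n = 3 each; blocked limma adjusted p 0.0243). The sulphotransferases SOT17 and SOT16, which finish the core, had log2 fold changes of 1.80 and 1.24. The glutathione transferases GSTU20 and GSTF11 had 1.76 and 1.25, the glucosyltransferases UGT74B1 and UGT74C1 had 1.16 and 1.08, and the C-S lyase SUR1 had 1.04. Blocked limma adjusted p-values of the 10 ran from 0.016 to 0.0374, and those without the block from 0.103 to 0.538. SUR1 was steady within genotypes, at 124.3 ± 13.3 RPKM in mac3a/mac3b and 59.8 ± 4.61 RPKM in Col-0 (SD, n = 3 each).

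**Figure D3:**
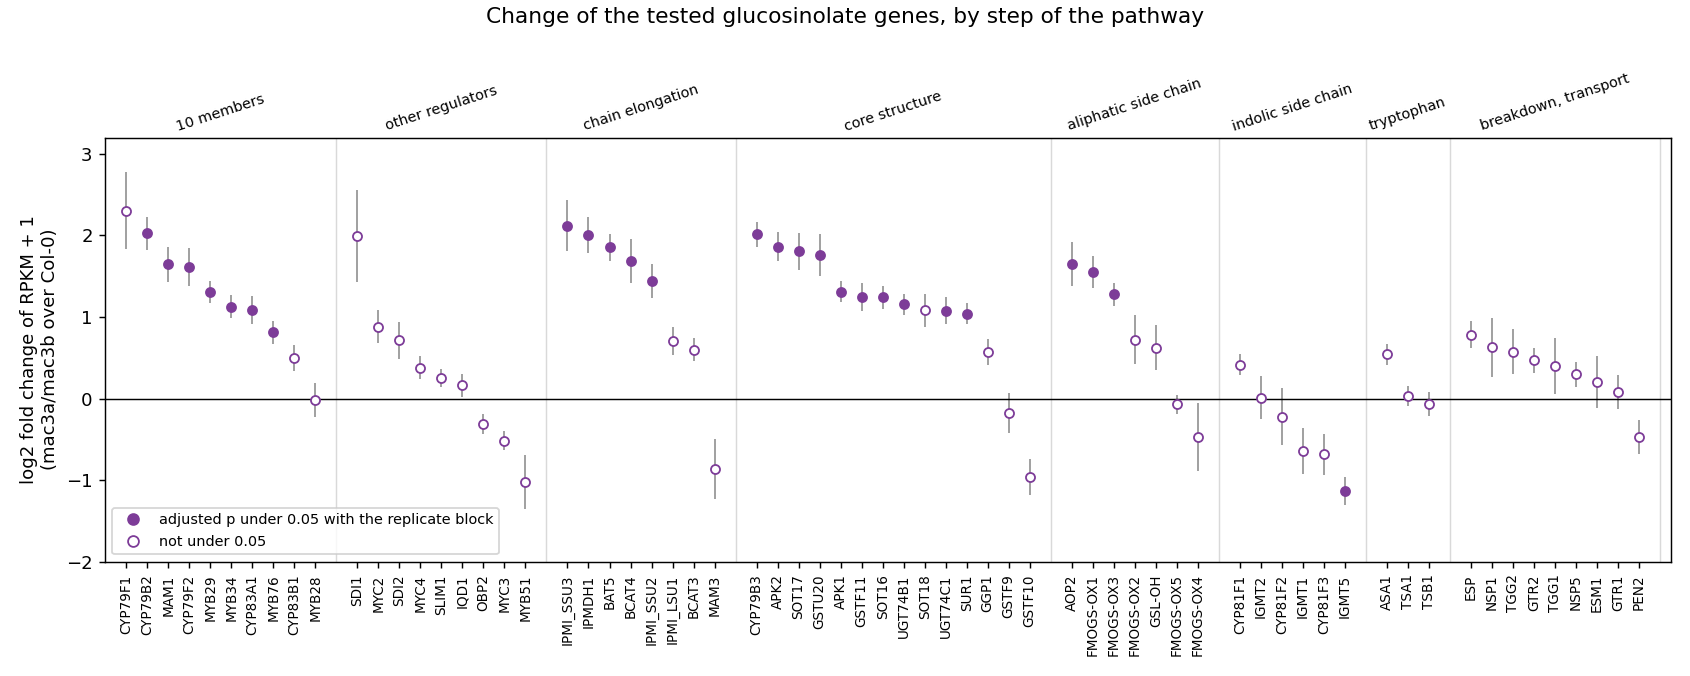
Log2 fold change of RPKM + 1, mac3a/mac3b over Col-0 (y axis), of the 10 genes and the tested genes of the other lists, ordered within each list; points are estimates, bars ± 1 SE of the fit with the replicate block, and filled points passed an adjusted p of 0.05 in that fit. Filled points above 0 lie among the 10 genes, chain elongation, core structure and the aliphatic side chain, and the 1 filled point below 0 is IGMT5 (−1.13).

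Of 7 tested aliphatic side-chain genes, 3 were higher with the block: AOP2 (log2 fold change 1.65), an alkenyl-forming enzyme known to be inactive in Col-0, and the S-oxygenating monooxygenases FMOGS-OX1 (1.55) and FMOGS-OX3 (1.28), with blocked limma adjusted p from 0.0254 to 0.0423. AOP3 was listed at 0 in every library. Of 6 tested indolic side-chain genes, 0 were higher and 1 lower with the block. That gene was IGMT5, a methyltransferase of the indole ring, with 17.1, 28.8 and 9.17 RPKM in mac3a/mac3b, against 31.8, 57.8 and 29.1 RPKM in Col-0. All mac3a/mac3b libraries of IGMT5 lay below all Col-0 libraries (log2 fold change −1.13, blocked limma adjusted p 0.0376, without the block 0.424). The median log2 fold change of the tested indolic side-chain genes was −0.43 and that of the aliphatic ones 0.72, a difference that was not tested. Most of these indolic genes were low: 1 of the 6 averaged at least 5 RPKM, while 7 of the 7 aliphatic genes did.

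Other regulators and the later fate of glucosinolates gave 0 calls in limma with or without the block. Of the other regulators, 1 was called higher with the block and rescaled RPKM, 1 in blocked DESeq2 and 1 in the blocked fit without the replicate 3 pair. These calls fell on SDI1 and SDI2, genes induced by sulphur deficiency, whose lowest blocked adjusted p-values were 0.0232 and 0.0453. SDI2 had 28.1, 23.7 and 18.03 RPKM in mac3a/mac3b and 13.3, 10.9 and 17.3 RPKM in Col-0, and SDI1 had 2.22, 3.60 and 20.9 RPKM in mac3a/mac3b and 1.11, 0.38 and 0.76 RPKM in Col-0. In both genes all mac3a/mac3b libraries lay above all Col-0 libraries. Of 9 tested regulators, 2 had an unadjusted limma p under 0.05 without the block, and of 9 tested breakdown and transport genes likewise 2, against 11% of all tested genes. The 2 breakdown and transport genes were ESP and GTR2, with log2 fold changes of 0.78 and 0.47. In both, all mac3a/mac3b libraries lay above all Col-0 libraries, as in 9.15% of all tested genes. By values seen, MYC2, a jasmonate-responsive partner of these MYB factors, had 54.6, 157.2 and 42.1 RPKM in mac3a/mac3b and 29.3, 61.5 and 30.9 RPKM in Col-0 (log2 fold change 0.88, blocked limma adjusted p 0.0781). MYC3 of the same list went the other way, lower in 3 of 3 pairs (−0.52, blocked limma adjusted p 0.0798). MYC4 had a log2 fold change of 0.38 (blocked limma adjusted p 0.185). MYB51, another activator of indolic genes, had 4.59, 11.04 and 1.57 RPKM in mac3a/mac3b and 11.1, 12.1 and 8.22 RPKM in Col-0, so its mean lay in the opposite direction from MYB34 (−1.03, 0.143). The myrosinase TGG1 averaged 1325 ± 262.2 RPKM in mac3a/mac3b and 1010 ± 223.5 RPKM in Col-0 (SD, n = 3 each). The 3 tested genes of tryptophan synthesis had log2 fold changes from −0.07 to 0.54 and 0 calls in limma, with 0 at an unadjusted p under 0.05; blocked DESeq2 called 1, ASA1, higher (adjusted p 0.0174).

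Clock genes and 1 jasmonate gene passed in the same contrast. All 5 clock genes listed passed with the block, where 2.7% of all tested genes were called higher and 1.82% lower. CCA1 and LHY, morning factors, were higher, with log2 fold changes of 3.18 and 1.22. LHY was low, with means of 2.03 RPKM in mac3a/mac3b and 0.283 RPKM in Col-0, so log2(RPKM + 1) understates its change. TOC1, LUX and ELF4, evening factors, were lower (−2.16, −1.99 and −3.15). These 3 also passed without the block (limma adjusted p 0.0454, 0.0454 and 0.0484), as did 0.105% of all tested genes. Without the block CCA1 and LHY did not pass (0.109 and 0.185). Of the 6 jasmonate genes, VSP2, a leaf storage protein gene induced by jasmonate, was higher with the block (3.70, limma adjusted p 0.159 unblocked, 0.0396 blocked). JAZ10 and JAZ1, repressors of jasmonate signalling, passed only in alternatives (lowest blocked adjusted p 2.91e-07 and 0.00679). Summed RPKM of these 6 was 1001 to 1237 in mac3a/mac3b and 231.7 to 982.1 in Col-0. The lowest sum was that of Col-0 replicate 3, where LOX2 had 139.8 RPKM, against 717.2 and 653.7 RPKM in Col-0 replicates 1 and 2. LOX2 and AOS, the largest terms of the sums, overlapped between genotypes and did not pass (blocked limma adjusted p 0.442 and 0.235). The part of the clock and jasmonate genes in the levels of the glucosinolate genes was not tested.

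The 10 genes hold 25 introns in the intron table, all with GT at the start and AG at the end, from 76 to 677 bases long. In the annotated transcript of each gene with the longest coding sequence, all lie between the first and the last coding base. Coordinates and bases are from RefSeq TAIR10.1, where 96.7% of the introns in the table have an annotated intron of equal length in the same gene. Introns are numbered from the 5′ end of each gene. Read in the frame of the preceding exon in these transcripts, each of the 25 holds a stop codon. The 7 introns below are shown because 5 of them (MYB28 intron 1, MYB29 intron 2, MYB76 intron 1, MYB34 intron 1 and CYP83B1 intron 1) had the highest mean retention of the 25 in mac3a/mac3b, MYB28 intron 2 is the other intron of its gene, and CYP79B2 intron 1 was almost never retained; capitals mark the first 6 and the last 3 bases.
MYB28 intron 1 (chr5:24690583-24690662, minus strand): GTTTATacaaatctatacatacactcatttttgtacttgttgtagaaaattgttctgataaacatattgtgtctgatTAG
MYB28 intron 2 (chr5:24690313-24690452, minus strand): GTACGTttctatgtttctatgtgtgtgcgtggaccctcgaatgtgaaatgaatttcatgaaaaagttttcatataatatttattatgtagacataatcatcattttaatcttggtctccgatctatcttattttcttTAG
MYB29 intron 2 (chr5:2447449-2447537, plus strand): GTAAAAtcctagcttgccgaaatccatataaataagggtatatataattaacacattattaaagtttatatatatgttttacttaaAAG
MYB76 intron 1 (chr5:2450458-2450584, plus strand): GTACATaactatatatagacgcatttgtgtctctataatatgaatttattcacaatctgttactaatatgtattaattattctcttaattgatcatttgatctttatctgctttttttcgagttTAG
MYB34 intron 1 (chr5:24495162-24495253, plus strand): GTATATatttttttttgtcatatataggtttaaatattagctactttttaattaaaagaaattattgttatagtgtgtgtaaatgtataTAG
CYP83B1 intron 1 (chr4:15274295-15274389, minus strand): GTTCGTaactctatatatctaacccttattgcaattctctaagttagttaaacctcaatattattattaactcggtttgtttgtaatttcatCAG
CYP79B2 intron 1 (chr4:18525150-18525225, plus strand): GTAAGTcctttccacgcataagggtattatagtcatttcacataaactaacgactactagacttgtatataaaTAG

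In MYB28 intron 1 the first in-frame stop begins at base 78 and is made by the last 3 bases of the intron itself, and in MYB34 intron 1 likewise at base 90. In MYB29 intron 2 and CYP79B2 intron 1 it begins at base 2. CYP79B2 has 2 annotated transcripts, and only the frame of the one with the longest coding sequence was read. Of 2 annotated MYB28 transcripts, 1 retains intron 1.

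Retention, the depth of an intron as a percentage of intron plus neighbouring exon depth, was higher in mac3a/mac3b for most of these introns, as it was genome-wide. Of the 25, all tested, 16 were higher by limma and 0 lower, with the same counts in the blocked fit. That is 64% of them, near the 62.3% of all 94773 tested introns that were called higher (61.9% blocked; 0.0538% were called lower), so the count does not set these genes apart. Their median log2 change was 1.73, and that of all tested introns was 1.83. The 16 reached 0.640% to 8.67% in mac3a/mac3b, against 0.106% to 2.63% in Col-0, with limma adjusted p from 0.00276 to 0.0273. The highest retention of any of the 25 in any library was 14.4%, and 13 of the 16 calls held in every alternative in which the intron was tested.

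**Figure D4:**
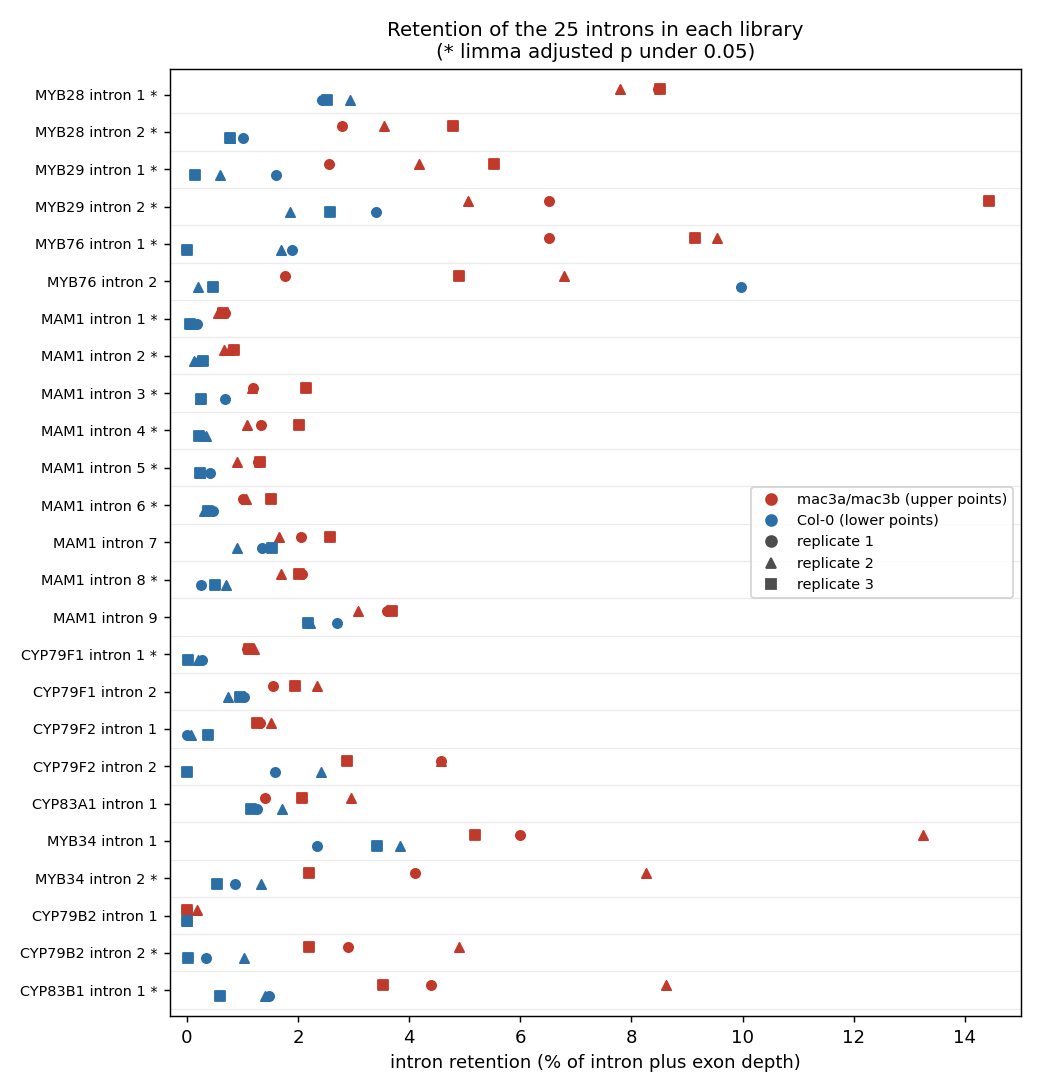
Retention of the 25 introns (rows, numbered from the 5′ end) as a percentage of intron plus exon depth (x axis, linear) in each mac3a/mac3b library (red, upper points) and Col-0 library (blue, lower points); symbols give the replicate number and asterisks mark a limma adjusted p under 0.05. The highest values in mac3a/mac3b are those of MYB introns, up to 14.4%, and MAM1 introns stay under 4%.

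The 8 introns of the regulators had mean retentions of 3.71% to 8.67% in mac3a/mac3b and 0.785% to 3.55% in Col-0. MYB28 intron 1 was at 8.48%, 7.80% and 8.51% in mac3a/mac3b replicates 1, 2 and 3, against 2.44%, 2.94% and 2.52% in Col-0. The libraries of a genotype lay close together and all mac3a/mac3b libraries lay above all Col-0 libraries, as in 65.5% of all tested introns, with means of 8.26% ± 0.402 in mac3a/mac3b and 2.63% ± 0.269 in Col-0 (SD, n = 3 each; log2 change 1.73, limma adjusted p 0.00553). MYB28 intron 2 averaged 3.71% ± 1.01 in mac3a/mac3b and 0.856% ± 0.142 in Col-0 (SD, n = 3 each; log2 change 2.11, limma adjusted p 0.00377). MYB28 thus passed for both introns and did not pass for its RPKM. In the authors' deposited table the adjusted value of MYB28 intron 1 was 0.0329 and that of MAM1 intron 1 was 0.0453, the only ones of the 25 under 0.05.

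MYB29 intron 2 was at 6.52%, 5.07% and 14.4% in mac3a/mac3b, against 3.41%, 1.85% and 2.58% in Col-0. Its call (log2 change 1.65, limma adjusted p 0.0273) ended without mac3a/mac3b replicate 3 (0.077), Col-0 replicate 2 (0.0863) or Col-0 replicate 3 (0.0614; 0.0247 to 0.0863 over all alternatives). MYB29 intron 1 averaged 4.09% ± 1.49 in mac3a/mac3b and 0.785% ± 0.749 in Col-0 (SD, n = 3 each; log2 change 2.24, limma adjusted p 0.0108). MYB76 intron 1 was at 6.52%, 9.55% and 9.15% in mac3a/mac3b and 1.89%, 1.70% and 0% in Col-0. All mac3a/mac3b libraries of this intron lay above all Col-0 libraries (log2 change 1.503, limma adjusted p 0.0156), and the call ended without Col-0 replicate 2 (0.0537; 0.0179 to 0.0537 over all alternatives). The depth there was low, with an average read depth of 11.4 to 68.9 over the neighbouring exons in Col-0. MYB76 intron 2 overlapped, since Col-0 replicate 1 had 9.97% and the mac3a/mac3b libraries 1.77% to 6.78% (limma adjusted p 0.546).

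MYB34 intron 2 was at 4.11%, 8.27% and 2.20% in mac3a/mac3b, against 0.866%, 1.34% and 0.538% in Col-0. Replicate 2 was highest in both genotypes and the groups did not overlap (log2 change 2.18, limma adjusted p 0.0138; without Col-0 replicate 3 0.0502, and 0.00784 to 0.0502 over all alternatives). MYB34 intron 1, named after its values were seen, was at 5.997%, 13.2% and 5.19% in mac3a/mac3b and 2.34%, 3.84% and 3.43% in Col-0. It missed the threshold, with a limma adjusted p of 0.0583, although the groups did not overlap, and passed without mac3a/mac3b replicate 3 (0.0495; 0.0495 to 0.179 over all alternatives).

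Among enzyme genes, CYP83B1 has 1 intron, which was at 4.39%, 8.62% and 3.53% in mac3a/mac3b, against 1.48%, 1.41% and 0.6003% in Col-0. The lowest mac3a/mac3b value exceeded the highest Col-0 value (log2 change 2.30, limma adjusted p 0.00812). The intron of CYP83A1, the aliphatic counterpart, was at 1.40%, 2.95% and 2.08% in mac3a/mac3b and 1.27%, 1.72% and 1.15% in Col-0, and the groups overlapped (0.60, 0.259). Whether these 2 introns differ in their change was not tested.

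CYP79B2 intron 2 had the largest log2 change of the 25 at a pseudocount of 0.5, 3.28 (limma adjusted p 0.0111), with 2.91%, 4.89% and 2.19% in mac3a/mac3b and 0.348%, 1.02% and 0.0172% in Col-0. The intron depth in Col-0 replicate 3 was only 0.12. Without 1 library the log2 change ran from 2.32 (without Col-0 replicate 3) to 4.12 (without Col-0 replicate 2). The limma adjusted p was 0.00569 to 0.0493 over all alternatives. Intron 1 of the same gene had 0%, 0.185% and 0.0025% in mac3a/mac3b and 0% in all Col-0 libraries, beside exon depths of 1457 to 1997 in mac3a/mac3b and 400.9 to 494.3 in Col-0. With so little intron depth its log2 change is set by the pseudocount and the exon depth (−0.91 with a pseudocount of 0.5 and 0.41 with 0.05), so no direction is given. It was called lower without mac3a/mac3b replicate 2 (limma adjusted p 0.0139; 0.0139 to 0.828 over all alternatives).

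Along MAM1, 7 of 9 introns were called higher. Its called introns were at 0.640% to 1.93% in mac3a/mac3b and 0.106% to 0.495% in Col-0. The largest changes in percentage points were those of intron 8, at 1.93% ± 0.200 in mac3a/mac3b and 0.495% ± 0.226 in Col-0 (log2 change 1.99, limma adjusted p 0.00679), and intron 4, at 1.48% ± 0.478 in mac3a/mac3b and 0.273% ± 0.0653 in Col-0 (SD, n = 3 each; 2.32, 0.00296). Intron 9, at 3.46% ± 0.331 in mac3a/mac3b, was the most retained of MAM1 in Col-0 as well, at 2.37% ± 0.284 (SD, n = 3 each), and did not pass (limma adjusted p 0.23). Of 3 annotated MAM1 transcripts, 1 retains intron 9. CYP79F1 intron 1 averaged 1.13% ± 0.0693 in mac3a/mac3b and 0.167% ± 0.138 in Col-0 (SD, n = 3 each; log2 change 2.39, limma adjusted p 0.00276). CYP79F1 intron 2, which 1 of 2 annotated transcripts retains, did not pass (1.94% in mac3a/mac3b and 0.908% in Col-0, limma adjusted p 0.0621). Neither intron of CYP79F2 passed at a pseudocount of 0.5, at Col-0 exon depths of 27.4 to 123.8, and in both all mac3a/mac3b libraries lay above all Col-0 libraries. Intron 1 was at 1.32%, 1.51% and 1.27% in mac3a/mac3b and 0%, 0.0727% and 0.384% in Col-0. Its log2 change was 0.60 (limma adjusted p 0.359), and 2.76 with a pseudocount of 0.05 (0.0185; 0.0185 to 0.992 over all alternatives).

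Splice site choice and exon use showed 0 calls. MAM1 was the only one of the 10 genes with rows for exon skipping, 2 events. Skipping of exon 5 had 1 read in mac3a/mac3b, of 24105 reads of both kinds, and 0 reads in Col-0, of 11277. Skipping of exon 9 had 4 reads in mac3a/mac3b, of 17554, and 7 reads in Col-0, of 7951. Neither passed in edgeR (adjusted p 0.633 and 0.614), where 0.0162% of all 12382 tested events did, 0 had an unadjusted p under 0.05, and limma called 0 as well.

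Alternative donors and acceptors were listed for 9 of the 10 genes, as 118 events, all tested. In edgeR 0 passed, against 0.187% of all 135996 tested events. An unadjusted edgeR p under 0.05 was found in 3 of the 118, and in 7208 of all 135996. Limma on the log2 ratio called 0 of the 118, with 5 under an unadjusted 0.05, against 11589 of all 135996. The 18 annotated junctions among the 118 events carried from 97.3% to 100% of the reads of their competing sets in mac3a/mac3b and from 97.9% to 100% in Col-0. Events with few reads on the alternative junction could not have shown a small difference at this depth.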

How the data were processed

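RNA of rosette leaves was measured in 3 mac3a/mac3b and 3 Col-0 libraries. Groups and replicate numbers come from the titles. The submitters' processing notes name TAIR10, Trimmomatic, Bowtie2 and DESeq2, without roles or versions; RackJ made the splicing tables, per the file names. The authors' deposited expression values carry no unit; multiplied by gene length they were proportional within 1% to the deposited unique read counts in at least 97.3% of compared genes, so they were read as RPKM. The authors' log2 fold change and adjusted p-value are quoted only as theirs, as are the authors' p-value and adjusted score of the intron table, whose adjusted values can exceed 1. Introns have the authors' deposited coverage depth, a signal, and skipping, junction and unique reads are deposited counts.

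For expression, limma 3.58.1 (R 4.3.3, variance trend) was fitted to log2(RPKM + 1) of the 17163 genes whose mean reached 1 RPKM. For introns it was fitted to the log2 ratio of intron to exon depth, 0.5 added to each, if both summed to 10 or more in each library. For events, the quasi-likelihood test of edgeR 4.0.16 took the genotype effect on the share of a read kind, given 10 or more reads in each library; 24122 rows that repeat another with kinds exchanged were left out. P-values were adjusted by Benjamini-Hochberg over all features, and values under 0.05 passed. As alternatives, the unique reads of 13069 genes were tested with edgeR and with DESeq2 1.42.0. Same-numbered libraries correlated across genes in their deviations from genotype means (r = 0.62, 0.78 and 0.43), which is the only source of the pairing. Tests were tried on simulated data. Within each genotype, no library was found to be a copy of another (at least 338.5 chi-square per degree of freedom). Libraries of different genotypes were not compared in this way.

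The 10 genes and the other lists were chosen with earlier results of these data known. Genes were named by rule: all 10 and up to 25 list genes past the threshold in either fit. Introns past it were named too, up to 10 by percentage points, and 5 genes of most similar course per branch. Some other introns and list genes are named outside this rule, such as CYP79F1 intron 1, CYP83A1 intron 1 and GSTF10. Not all of these are marked as exceptions. All 111 list identifiers matched the RefSeq TAIR10.1 table. Counts were assumed in the design; depths and RPKM needed limma.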

Additional observations from a re-analysis of the deposited data

How the results depend on the processing

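Of the 10 genes, 7 passed with the replicate block, 8 with the block and RPKM rescaled to library totals, 8 of 9 in DESeq2 with the block and 6 of 9 in edgeR with the block. Blocked fits without 1 same-numbered pair gave 0 to 4. Without the block, rescaling and DESeq2 each gave 1, CYP79B2, and the other settings 0. Over all genes the 18 calls became 45 with no filter, 4 at a mean of at least 5 RPKM, 776 with the block (463 higher, 313 lower), 1153 with the block and rescaling (524 higher, 629 lower), 463 with DESeq2, 1843 with DESeq2 and the block (924 higher, 919 lower), 0 with edgeR (1246 at an unadjusted p under 0.05) and 511 with edgeR and the block. Without 1 library 0 to 11 passed, and without 1 pair, blocked, 1, 240 and 385. Rescaling set the median log2 fold change of all genes at −0.08, against 0.01. The log2 fold change of MYB28 ran from −0.18 to 0.22 without 1 library, positive without mac3a/mac3b replicate 3 (0.02) and Col-0 replicate 3 (0.22), and blocked without 1 pair from −0.19 to 0.26. CYP79B2 intron 1 turned positive with a pseudocount of 0.05 (0.41), and MYB76 intron 2 ran from −0.34 (without Col-0 replicate 2) to 1.68 without 1 library. The 16 called introns of the 10 genes were 14 to 17 over all alternatives. The 2 skipping calls of the whole table became 8 with at least 60 reads of each kind, 4 with the block, 75 with limma and 0 to 4 without 1 library. The 254 donor and acceptor calls became 403 with at least 60 reads of each kind, 22 with limma and 87 to 179 without 1 library. The causes were not tested. The block changed 0 calls of introns or events of the 10 genes. Depth limits MYB76 and CYP79F2 most, with Col-0 exon depths from 11.4 and 27.4.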
